A study of Homo sapiens with 9 samples.

Results

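The genes described here are the long intergenic non-coding genes that carry a LINC symbol, the placeholder name given to a non-coding gene lying between protein-coding genes before its function is known. Of 62710 gene identifiers in the count table, 1521 had a symbol made of LINC and digits, and the 141 of these (9.27%) with a mean of at least 20 raw counts over the 9 libraries were taken as members. They were thus chosen by their mean raw count, which uses the same libraries as the comparisons, so this value is a description only. The last genes left out were LINC00548/LINC00598, LINC01659 and LINC00501, with means of 19.6, 19.8 and 19.9 counts, and the first taken in were LINC03048, LINC00460 and LINC02985, with 20.6, 20.7 and 20.8. Another 922 LINC-named genes had no count in any library. All 141 members passed the filter on low counts and were tested, and 6 of them had a mean under 20 in the non-stimulated libraries alone. Without the ADP-heptose libraries the mean of 6 members fell under 20: LINC00943 (mean of 6 counts in the other libraries), LINC01433 (12.5), LINC00460, LINC02901, LINC02985 and LINC03048. These were taken in only through the group in which their mean raw count was highest, and that group also had the deepest libraries. The rises of LINC00943 and LINC01433 with ADP-heptose are therefore given as a description, with no test.

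The study asked how ADP-heptose, a sugar nucleotide released by Gram-negative bacteria and sensed in the cytosol by the kinase ALPK1, alters gene expression in intestinal tumor cells. HT-29 cells, a line of colorectal adenocarcinoma cells with wild-type genotype, received no stimulus (NS), ADP-heptose (AH) or flagellin (F), the bacterial protein recognized by TLR5 at the cell surface. Both stimuli were given at 500 ng/mL for 2.5 h. Each condition had 3 libraries of poly(A)-selected RNA, so that non-coding transcripts without a poly(A) tail were measured poorly or not at all. A single time point of a single cell line was measured, and every group shared this background.

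Long non-coding RNAs are transcribed by RNA polymerase II and often spliced and polyadenylated like mRNAs, but code for no known protein. Most are present at low levels and in few cell types. Some act where they are made, on the gene next to them, for example by recruiting chromatin proteins or because their transcription opens a shared region. Others act elsewhere as scaffolds or decoys for proteins and small RNAs. Several are known to be induced with NF-κB, the transcription factor that both ALPK1 and TLR5 activate, and some of these feed back on the same pathway.

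By GENCODE 29 on GRCh38, 114 members were typed as lincRNA, 10 as processed transcript and 6 as antisense. A further 6 were typed as protein-coding. Of these, LINC00473, LINC01590 and LINC02491 share their identifier with the coding genes PDE10A, SMIM8 and MMAA, so their counts are those of the coding genes, whereas LINC00672, LINC02693 and LINC03040 are typed as coding by that annotation. Members lay on 23 chromosomes, 20 overlapped the body of a coding gene, and 41 shared exon bases with another annotated gene, 32 of them with a gene on the opposite strand. The strand setting of the counting is not given in the sources used here, so reads of such overlapping genes cannot be told apart.

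The 300 bases around the start site are shown for the members that changed by at least 2-fold after ADP-heptose and have an entry in RefSeq's promoter table (GRCh38.p14), because these are the sequences next to which the largest responses were measured. LINC02688 also changed by at least 2-fold and is named only. Each sequence runs 5′ to 3′ on the gene's own strand, from 250 bases before the start to 50 bases after it. Capitals mark the TATA motif, TATAAA, or its letters on the other strand, and the AP-1 motif, which is TGANTCA. The windows are chr12:126736757-126737056 (plus strand) for LINC00943, chr6:137665396-137665695 (plus) for LINC03004, chr20:4192840-4193139 (plus) for LINC01433, chr6:53628130-53628429 (plus) for LINC01564, chr12:54125821-54126120 (plus) for LINC02381 and chr11:69479908-69480207 (minus) for LINC02747.
LINC00943: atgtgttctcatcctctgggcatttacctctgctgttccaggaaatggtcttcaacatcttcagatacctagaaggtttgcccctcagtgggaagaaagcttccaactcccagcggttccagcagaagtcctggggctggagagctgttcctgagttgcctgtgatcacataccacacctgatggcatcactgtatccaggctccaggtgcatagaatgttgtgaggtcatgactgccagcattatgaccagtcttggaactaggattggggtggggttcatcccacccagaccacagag
LINC03004: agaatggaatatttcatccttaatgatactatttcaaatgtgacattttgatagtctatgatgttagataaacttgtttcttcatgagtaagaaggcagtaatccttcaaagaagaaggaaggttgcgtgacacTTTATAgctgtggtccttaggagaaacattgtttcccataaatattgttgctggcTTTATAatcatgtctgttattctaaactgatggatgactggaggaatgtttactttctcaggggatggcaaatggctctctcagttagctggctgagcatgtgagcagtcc
LINC01433: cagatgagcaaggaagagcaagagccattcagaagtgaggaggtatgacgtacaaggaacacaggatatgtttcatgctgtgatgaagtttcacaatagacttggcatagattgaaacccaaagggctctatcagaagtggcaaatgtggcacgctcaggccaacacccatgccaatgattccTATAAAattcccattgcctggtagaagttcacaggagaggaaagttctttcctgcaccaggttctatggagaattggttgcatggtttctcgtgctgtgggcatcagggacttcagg
LINC01564: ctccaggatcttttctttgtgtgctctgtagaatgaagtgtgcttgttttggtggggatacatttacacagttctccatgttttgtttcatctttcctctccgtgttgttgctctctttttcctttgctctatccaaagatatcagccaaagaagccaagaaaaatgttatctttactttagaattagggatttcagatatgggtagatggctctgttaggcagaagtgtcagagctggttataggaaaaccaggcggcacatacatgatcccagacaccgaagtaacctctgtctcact
LINC02381: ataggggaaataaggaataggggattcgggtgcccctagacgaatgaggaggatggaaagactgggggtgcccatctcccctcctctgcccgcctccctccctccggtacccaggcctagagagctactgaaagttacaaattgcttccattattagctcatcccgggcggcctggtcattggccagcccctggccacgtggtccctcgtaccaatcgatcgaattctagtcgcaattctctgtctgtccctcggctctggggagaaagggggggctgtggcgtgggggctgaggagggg
LINC02747: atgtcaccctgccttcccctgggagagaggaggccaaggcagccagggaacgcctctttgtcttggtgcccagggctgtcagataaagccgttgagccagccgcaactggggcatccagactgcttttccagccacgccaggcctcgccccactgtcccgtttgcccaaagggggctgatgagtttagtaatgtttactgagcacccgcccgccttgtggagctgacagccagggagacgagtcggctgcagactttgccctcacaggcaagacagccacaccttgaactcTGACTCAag

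LINC01433 held TATAAA at position -67 and LINC03004 held it on the opposite strand at positions -116 and -61, while LINC02747 held TGANTCA at position 42, counted so that the start base is 1 and the base before it -1. The RefSeq starts of LINC00943, LINC03004 and LINC02747 lie inside the gene bodies given by GENCODE. Both strands of all 35116 promoters in the table were searched for these motifs and for the NF-κB consensus. The TATA motif was found in 11.5% of them, the AP-1 motif in 7.71% and the NF-κB consensus in 11.3%. Among the 117 promoters of the 100 members that have an entry, the shares were 17.9%, 12% and 8.55%. Of the 9 promoters of members that rose after ADP-heptose, 3 held the TATA motif and 0 held either of the others. These include LINC00943 and LINC01433, taken in only through the AH libraries, and LINC01433 is 1 of the 3. Of the 15 promoters of members that fell, 2 held the TATA motif, 3 the AP-1 motif and 0 the NF-κB consensus. These matches describe the letters of these windows and say nothing of whether a factor binds there.

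The libraries held 30770448 to 58272772 counts, with 50054773 to 58272772 in the AH group and at most 38304035 in the others, so depth moved with the group; its part in the results was not tested. Members took 0.0623% to 0.0734% of each library. AH replicate 3 stood apart from AH replicates 1 and 2: over 11854 genes the SD of the log2 differences was 0.374 and 0.380 against them, 0.127 between them, and 0.163 to 0.194 between replicates of the other groups. Epithelial markers were present (9 of 10 tested, CDX1 close to 0), while of 10 markers of leukocytes, fibroblasts and endothelium 3 were at 0 in every library (CD3E, DCN and CDH5) and 2 were tested, COL1A1 and ITGAM. Both were higher after ADP-heptose. COL1A1, a collagen gene, had a log2 fold change of 0.41 (SE 0.11, adjusted p = 0.0311). ITGAM, a leukocyte integrin gene, had 59, 42 and 23 raw counts in the AH libraries and 0, 0 and 6 in the NS libraries (log2 3.87, SE 0.87, adjusted p = 0.0121). The leukocyte gene PTPRC had no count in the AH libraries. The summed level of these 10, mostly COL1A1, was 18.4 to 19.7 counts per 1000000 (CPM) in the AH libraries, 12.7 to 16.1 in the F libraries and 12.7 to 14.8 in the NS libraries, and its part in the results was not tested. All 10 listed NF-κB targets were higher after both stimuli, with a median log2 fold change of 5.45 after ADP-heptose and 2.29 after flagellin. The labels do not say whether the 3 libraries of a group came from separate cultures, although the study describes independent experiments, so the p-values measure the spread between these libraries.

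The comparison of ADP-heptose with non-stimulated cells addressed which members respond to the ALPK1 ligand. LINC03004 upstream of TNFAIP3, LINC02688 in the mucin cluster and LINC01564 rose by at least 2-fold. LINC00943, close to absent in non-stimulated cells, and LINC01433, beside SMOX, were also higher by more than 2-fold, but became members only through the ADP-heptose libraries. LINC02381 and LINC02747 fell most, to under 0.5 of their non-stimulated level. Of the 141 members, 10 rose and 13 fell at an adjusted p under 0.05 (edgeR's quasi-likelihood F test, Benjamini-Hochberg adjusted over the 17412 genes tested). Over all genes tested, 7.48% rose and 4.42% fell, against 7.09% and 9.22% of the members. At a change of at least 2-fold as well, 5 members rose and 2 fell, beside 2.89% and 0.471% of all genes. The counts of rises include LINC00943 and LINC01433. Among the 135 members with a mean of at least 20 in the NS libraries, 8 rose (5.93%) and 13 fell (9.63%). By at least 2-fold, 3 of them (2.22%) rose and 2 (1.48%) fell. That rule in turn uses the NS libraries, and takes in genes that are high there. All genes were not put under it, so these shares cannot be set against theirs. The median log2 fold change of the members was -0.04, and that of all genes 0.01. The 3 AH libraries lay above all 3 NS libraries for 19 members and below them for 27, whereas 15.4% and 14.7% of all genes were separated in this way. The number that fell depended on which NS library was used: it was 6 without NS replicate 1 and 6 without NS replicate 3. With library totals in place of TMM scaling, 9 members rose and 22 fell. That scaling moved the median of all genes to -0.13.

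LINC00943, on chromosome 12 (126726270 to 126746252, plus strand) 1063893 bases from the nearest coding gene, TMEM132B, had the largest difference of all members, which is a description because its ADP-heptose reads made it a member. Its raw counts were 83, 77 and 32 in the AH libraries, 4, 12 and 17 in the F libraries and 0, 3 and 0 in the NS libraries. It was thus close to absent before stimulation and present in every stimulated library, and the AH libraries lay above all others. AH replicate 3 held fewer reads than the other AH libraries. The pooled AH to NS ratio at equal depth was 47.9, with an exact 95% interval of 16.1 to 234 for counting error only. The fitted log2 fold change was 5.41 (SE 0.84). With 3 reads in all NS libraries this fold depends on the small prior count of the fit, and it ranged from 4.85 to 8.72 over the alternative settings. Its level stayed low even so, at 0.138 CPM per kb of exon over all libraries. In bulk RNA, more cells carrying a transcript and more transcript per cell cannot be told apart, for this gene or any other.

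LINC03004 lies on chromosome 6 (137657998 to 137763984, plus strand), 103204 bases upstream of TNFAIP3 on the same strand; TNFAIP3 encodes A20, an enzyme that limits NF-κB signaling. Its normalized counts were 121, 107 and 140 in the AH libraries, 65.1, 37.8 and 88.0 in the F libraries and 25.8, 34.8 and 40.0 in the NS libraries. All AH libraries lay above all others, while flagellin replicate 2 fell within the NS range. The rise after ADP-heptose was 3.65-fold (log2 1.87, SE 0.29, adjusted p = 9.2e-04). TNFAIP3 itself rose by a log2 fold change of 4.76 (SE 0.13, adjusted p = 1.8e-10), from a mean of 262 normalized counts to 7087.

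**Figure D1:**
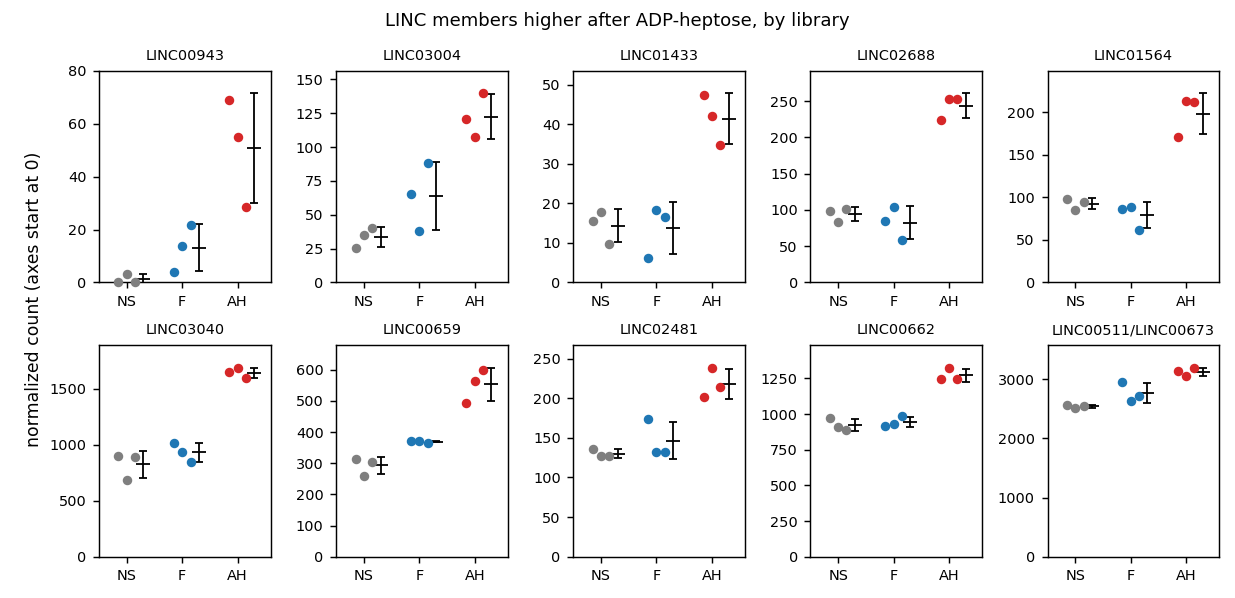
Normalized counts (vertical axes, each starting at 0) of the 10 LINC genes that rose after ADP-heptose, in non-stimulated (NS), flagellin (F) and ADP-heptose (AH) libraries. Points are libraries and bars the mean with SD (n = 3); in every panel the 3 AH libraries sit above the 3 NS libraries, and the F libraries of LINC00659 sit between them.

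LINC01433, LINC02688 and LINC01564 were 2.87-, 2.58- and 2.14-fold higher in the AH libraries than in the NS libraries, and for each of them the mean of the F libraries lay below that of the NS libraries. LINC01433 (chromosome 20, 4193065 to 4195943, plus strand) had 47.5, 42.1 and 34.7 normalized counts in the AH libraries, 6.20, 18.3 and 16.6 in the F libraries and 15.5, 18 and 9.73 in the NS libraries. Its log2 fold change was 1.52 (SE 0.39), a description as for LINC00943. It starts 5318 bases past the end of SMOX, the gene of spermine oxidase, which rose by a log2 fold change of 1.27 (SE 0.10, adjusted p = 3.8e-06).

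LINC02688 (chromosome 11, 1049880 to 1055749, plus strand) lies in the cluster of gel-forming mucin genes, between MUC6, which was too low to be tested, and MUC2, the main mucin of the colon. Its normalized counts were 224, 254 and 254 in the AH libraries, 84.8, 104 and 58.7 in the F libraries and 98.0, 83.0 and 102 in the NS libraries. The AH libraries stood clear of the other 6, which overlapped one another. The log2 fold change was 1.37 (SE 0.19, adjusted p = 3.2e-04). MUC2, 19126 bases away on the same strand, rose by 1.08 (SE 0.19, adjusted p = 0.00195).

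LINC01564 (chromosome 6, 53628380 to 53631394, plus strand) faces GCLC, a gene of glutathione synthesis that lies 11410 bases away on the other strand, head to head. It had 171, 213 and 212 normalized counts in the AH libraries, 86.9, 89.2 and 61.2 in the F libraries and 98.0, 85.3 and 94.1 in the NS libraries. Here too only the AH libraries were high. The log2 fold change was 1.10 (SE 0.17, adjusted p = 0.00108), while GCLC gave 0.20 (SE 0.07, adjusted p = 0.116).

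The other 5 members that rose did so by less than 2-fold from higher normalized counts. LINC03040, typed as coding in GENCODE 29, went from a mean of 827 ± 120 (SD, n = 3) to 1644 ± 46.4 normalized counts (log2 0.99, SE 0.11), its AH libraries at 1651, 1687 and 1595 standing clear of the other 6. LINC00659 rose from 293 ± 28.6 to 553 ± 53.8 (log2 0.92, SE 0.11), with the F libraries in between at 371, 371 and 366. LINC02481 rose from 130 ± 5.19 to 218 ± 18.9 (log2 0.74, SE 0.15), and S100P, a calcium-binding protein gene 2550 bases away head to head, rose by 0.71 (SE 0.15, adjusted p = 0.00656). LINC00662 rose from 924 ± 44.2 to 1271 ± 46.8 (log2 0.46, SE 0.08). LINC00511/LINC00673, a pair of symbols for 1 identifier and the member with the highest normalized counts before any scaling by length, rose from 2539 ± 21.3 to 3121 ± 71.5 (log2 0.30, SE 0.07). The edgeR adjusted p of these 5 members were 4.7e-05, 1.2e-04, 0.00524, 0.00148 and 0.0122. The call of LINC00511/LINC00673 was lost when any NS library was left out or with library totals in place of TMM scaling (adjusted p up to 0.130, the latter), and the other 4 calls held in all 16 alternative settings. LINC03040, LINC00662 and LINC00511 share exon bases with a gene on the opposite strand.

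The members that fell did so mostly by less than 2-fold. LINC02381 (chromosome 12, 54126098 to 54142493, plus strand) lies within the body of SMUG1, a DNA repair glycosylase gene on the other strand, and had the largest fall. Its normalized counts were 95, 120 and 72.1 in the AH libraries, 170, 188 and 208 in the F libraries and 240, 174 and 242 in the NS libraries. The AH libraries lay below all others, and the F and NS libraries overlapped. The log2 fold change was -1.19 (SE 0.20, adjusted p = 0.00168), whereas that of SMUG1 was -0.05 (SE 0.09, adjusted p = 0.773).

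LINC02747 (chromosome 11, 69475567 to 69481545, minus strand), 107841 bases from MYEOV, had 95.8, 80.0 and 97.9 normalized counts in the AH libraries, 199, 162 and 162 in the F libraries and 190, 192 and 175 in the NS libraries. Again the AH libraries alone were low. The log2 fold change was -1.03 (SE 0.15, adjusted p = 5.5e-04). LINC01409 fell to a mean of 59.2 ± 9.23 from 116 ± 15.5 (log2 -0.98, SE 0.26, adjusted p = 0.0300), and its F libraries at 46.5, 97.3 and 94.4 ranged from below the AH libraries to just under the NS libraries. LINC01836, upstream of the splicing factor gene PTBP1, fell to 71 ± 25 from 138 ± 24.2 (log2 -0.96, SE 0.24, adjusted p = 0.0202). AH replicate 3 was its highest AH library at 99.6, beside 53.3 and 60. The call of LINC01409 was lost without AH replicate 2 or any NS library, and that of LINC01836 without AH replicate 1, AH replicate 2 or NS replicate 3 (adjusted p up to 0.128 and 0.09996).

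**Figure D2:**
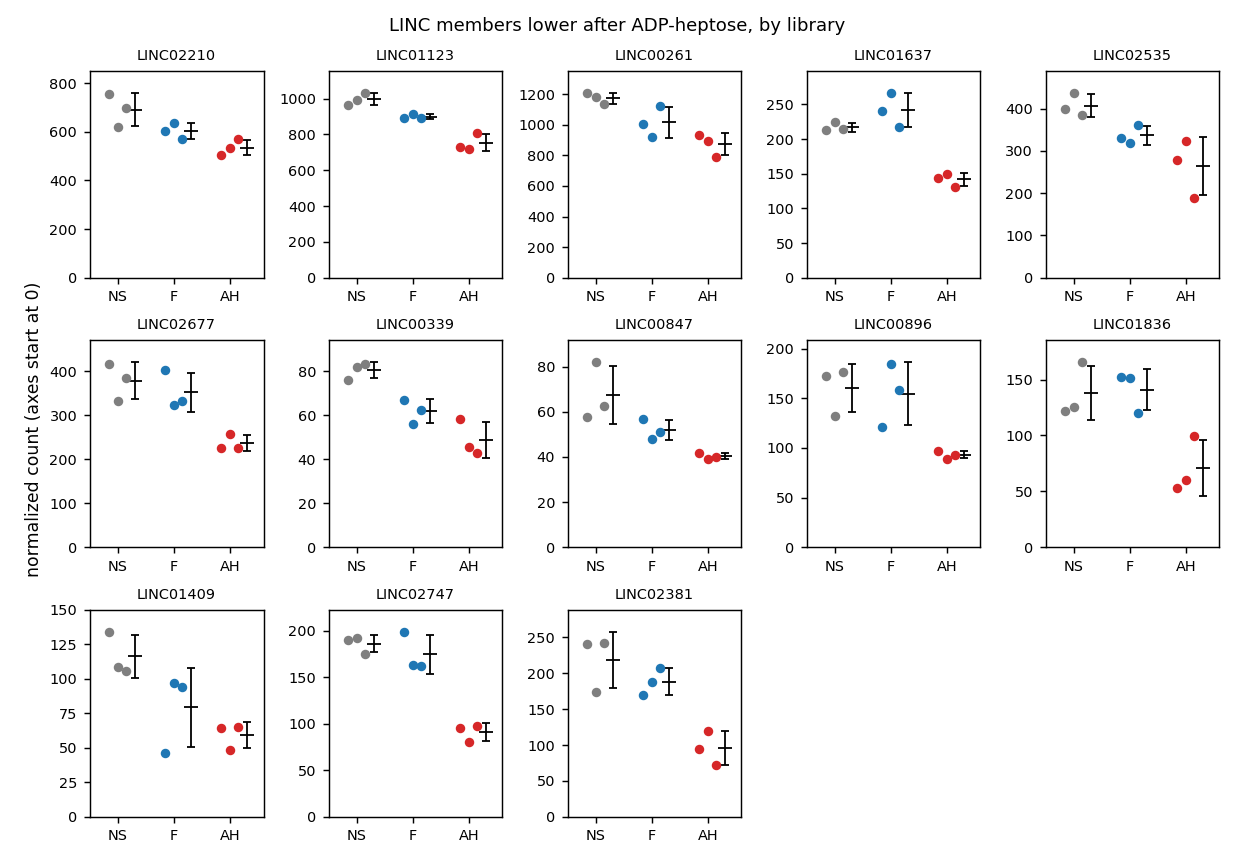
Normalized counts (vertical axes, each starting at 0) of the 13 LINC genes that fell after ADP-heptose, in non-stimulated (NS), flagellin (F) and ADP-heptose (AH) libraries, with the mean and SD (n = 3) beside the points. The AH libraries sit below the NS libraries in all panels, and the gap is small for LINC02210, LINC01123 and LINC00261.

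LINC00896, LINC02677 and LINC01637 fell by 0.78, 0.67 and 0.61 on the log2 scale (SE 0.18, 0.13 and 0.13), with adjusted p of 0.0144, 0.00436 and 0.00703. LINC02677, also named LASTR, encodes an RNA that associates with the splicing factor SART3, and went from 378 ± 42.1 to 237 ± 18.6 normalized counts. LINC00896 had 96.6, 89.3 and 93.4 normalized counts in the AH libraries, 121, 184 and 158 in the F libraries and 172, 132 and 176 in the NS libraries. LINC01637, 429 bases upstream of AIFM3, had 144, 150 and 131 in the AH libraries, 241, 267 and 217 in the F libraries and 212, 224 and 214 in the NS libraries. For all 3 genes the AH libraries lay below the other 6, and the F libraries overlapped the NS libraries. Without NS replicate 1 or NS replicate 3 the call of LINC00896 was lost (adjusted p up to 0.0704). LINC02535 fell by 0.62 (SE 0.16, adjusted p = 0.0283), and its AH libraries were uneven at 278, 324 and 189. Its call was lost without AH replicate 1, F replicate 1 or any NS library (adjusted p up to 0.106).

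LINC00847 and LINC00339 had the weakest calls, with log2 fold changes of -0.74 (SE 0.21, adjusted p = 0.0433) and -0.72 (SE 0.20, adjusted p = 0.0351). Both calls were lost without AH replicate 3 (adjusted p = 0.0750 and 0.0882). Over the 16 alternative settings their adjusted p were 0.0175 to 0.167 and 0.0163 to 0.109, with 3 and 7 settings past the threshold, and leaving out any library ended the call of LINC00847. That of LINC00339 was also lost without AH replicate 2, F replicate 3 or any NS library. LINC00847 shares exon bases with HEIH, another non-coding gene, on the opposite strand, and LINC00339, near CDC42, shares them with genes on both strands.

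Among the 5 members with the highest mean normalized count, LINC00261 was the only fall. Its RNA is known from endoderm differentiation and lies 2363 bases downstream of FOXA2, which encodes a transcription factor of gut endoderm. It had 931, 894 and 791 normalized counts in the AH libraries, 1003, 922 and 1124 in the F libraries and 1205, 1180 and 1133 in the NS libraries. The 3 groups were ordered, with the F libraries between the others and overlapping the AH range. The log2 fold change after ADP-heptose was -0.43 (SE 0.09, adjusted p = 0.0104), lost without NS replicate 1 (adjusted p = 0.0523, the highest over all settings, the lowest being 0.00116), and FOXA2 fell by 0.49 (SE 0.07, adjusted p = 3.0e-04). LINC01123 and LINC02210, looked at after their values were seen, fell by 0.41 (SE 0.08) and 0.37 (SE 0.10), with adjusted p of 0.00453 and 0.0301. The call of LINC02210 was lost without AH replicate 1, AH replicate 2, NS replicate 1 or NS replicate 3 (adjusted p up to 0.146). LINC00261, LINC02210 and LINC01409 share exon bases with a gene on their own strand, for LINC02210 a transcript that runs on into CRHR1, and LINC01123 with a pseudogene on the other strand. The last of the 5 members with the highest mean normalized count, LINC00473, stands for the counts of PDE10A and gave a log2 fold change of 0.09 (SE 0.11, adjusted p = 0.648).

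After flagellin, 0 members passed the test in either direction with edgeR and 0 with DESeq2, beside 0.368% of all genes that rose and 0.0115% that fell. The spread used by the edgeR test includes the AH libraries. Its shared estimate, the square root of the common dispersion, was 0.109 over all 9 libraries and 0.0586 over the F and NS libraries alone. At an unadjusted p under 0.05 there were 5 members (3.55%), beside 3.78% of all genes. The F libraries lay above the NS libraries for 8 members and below them for 13, beside 7.66% and 5.19% of all genes. The median log2 fold change of the members was -0.01. LINC00943 had the largest value: its pooled F to NS ratio was 11.7, with an exact 95% counting interval of 3.66 to 59.5, and the fit gave a log2 fold change of 3.43 (SE 0.99, adjusted p = 0.522). All 3 F libraries, at 4, 12 and 17 raw counts, lay above the NS libraries. The call changed with a library of the other stimulus, since without AH replicate 3 it passed at an adjusted p of 0.0310, and it also passed with no filter on low counts at 0.00101. In the other settings the adjusted p was 0.0960 to 1.

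LINC03004 gave a log2 fold change of 0.92 after flagellin (SE 0.30, adjusted p = 0.843), LINC00659 gave 0.33 (SE 0.11, adjusted p = 0.885) and LINC00261 gave -0.21 (SE 0.09, adjusted p = 1). LINC00299, near ID2 and outside the rule for named genes, had 128, 143 and 130 normalized counts in the F libraries, 96.6, 90.7 and 121 in the AH libraries and 81.5, 93.1 and 76.8 in the NS libraries. Its F libraries lay above all others, at a log2 fold change of 0.68 (SE 0.17, adjusted p = 0.309). For 112 of the 141 members the 95% interval of the log2 fold change after flagellin lay within 2-fold in both directions, so a larger change was outside the interval for these, while for 29 it was not.

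**Figure D3:**
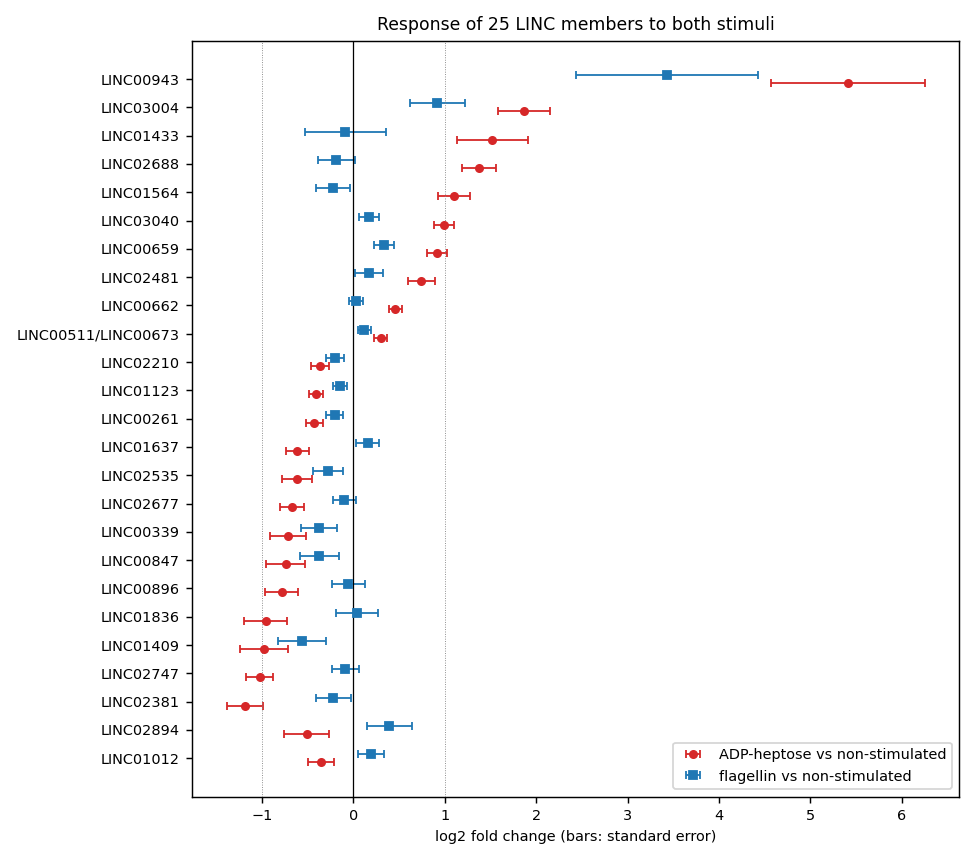
Log2 fold change with SE (horizontal axis) of the 25 LINC genes that passed the test in any of the 3 comparisons, after ADP-heptose (red circles) and flagellin (blue squares), both against the same 3 non-stimulated libraries. Apart from LINC00943 and LINC03004, the flagellin values lie between -0.56 and 0.39, and dotted lines mark 2-fold. LINC00943 and LINC01433 are shown as a description only.

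ADP-heptose and flagellin were also compared directly, at the same dose and time, to test which members differ between the stimuli. In this comparison 7 members were higher after ADP-heptose and 8 were lower, beside 5.4% and 2.76% of all genes. Among the 135 with a mean of at least 20 in the NS libraries these were 6 and 8, and 2 were higher by at least 2-fold. Of all 141 members, 3 were higher by at least 2-fold and 0 lower by as much, beside 2.06% and 0.287% of all genes. Those higher include LINC01433. The AH libraries were above the F libraries for 14 members and below them for 20 (14.2% and 12.8% of all genes). The counts depended on single libraries: 12 were higher without AH replicate 3, and the number lower was 3 without AH replicate 1, 4 without F replicate 1, 5 without F replicate 2 and 4 without F replicate 3. With library totals, 6 were higher and 12 lower.

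The members higher after ADP-heptose than after flagellin were LINC02688 (log2 1.55, SE 0.19, adjusted p = 1.7e-04), LINC01564 (1.32, SE 0.18, 3.9e-04), LINC03040 (0.82, SE 0.11, 3.1e-04), LINC00659 (0.58, SE 0.11, 0.00479), LINC02481 (0.57, SE 0.15, 0.0308) and LINC00662 (0.43, SE 0.08, 0.00311), together with LINC01433, whose difference of 1.61 (SE 0.40) is a description. The difference for LINC02481 was lost without AH replicate 2, F replicate 2 or F replicate 3 (adjusted p up to 0.140). LINC03004 did not pass here. Its log2 difference was 0.95 (SE 0.27, adjusted p = 0.0542), with every AH library above every F library. It passed without AH replicate 3 (adjusted p = 0.0284) and without F replicate 3 (0.0265), and over all 16 settings its adjusted p was 0.00353 to 0.173. LINC00943 differed by 1.98 (SE 0.58), also with no overlap between the groups, again as a description.

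The members lower after ADP-heptose than after flagellin included LINC01836, LINC02381, LINC02747, LINC01637, LINC00896 and LINC02677, with log2 differences of -1.0, -0.97, -0.94, -0.77, -0.73 and -0.57 (SE 0.13 to 0.24, adjusted p 0.00149 to 0.0291). LINC02747 and LINC01637 held in all 16 alternative settings. LINC01836 was lost without AH replicate 1, AH replicate 2, F replicate 1 or F replicate 2, and LINC00896 without AH replicate 1, AH replicate 2, F replicate 2 or F replicate 3. LINC02381 was lost without F replicate 3, and LINC02677 without AH replicate 1 or F replicate 1. The adjusted p of these 4 were at most 0.152. LINC02894, which faces ESRP1, a regulator of epithelial splicing 1607 bases away, had 60.8, 106 and 68.5 normalized counts in the AH libraries, 158, 126 and 160 in the F libraries and 80.5, 120 and 138 in the NS libraries. The AH and F libraries were separate, with the NS libraries across both. Its log2 difference was -0.90 (SE 0.25, adjusted p = 0.0444), lost without AH replicate 1, NS replicate 2, NS replicate 3 or any F library (adjusted p up to 0.155), and against non-stimulated cells it was -0.51 after ADP-heptose and 0.39 after flagellin. LINC01012, outside the rule for named genes, differed by -0.55 (SE 0.14, adjusted p = 0.0304), from values of -0.35 and 0.19 against the non-stimulated libraries that both stimuli share. Its call was lost without AH replicate 1 or any F library (adjusted p up to 0.118).

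Because some long non-coding RNAs act on the gene beside them, each member was set beside its nearest tested protein-coding gene in GENCODE 29, which 140 members had. After ADP-heptose the nearest gene had risen for 5 of the 10 members that rose, beside 12.9% of all 140 nearest genes that rose. Leaving out LINC00943 and LINC01433, it had risen for 4 of 8. The 5 pairs were LINC03004 with TNFAIP3, LINC01433 with SMOX, LINC02688 with MUC2, LINC02481 with S100P and LINC03040 with MRPL14, a mitochondrial ribosomal protein gene 107496 bases away (log2 0.52, SE 0.14, adjusted p = 0.0306). For the 13 members that fell, the nearest gene had fallen in 3 cases, beside 12.1% of all nearest genes: LINC00261 with FOXA2, LINC00847 with ZFP62 (-0.47, SE 0.08, adjusted p = 0.00221) and LINC02677 with ASB13 (-0.31, SE 0.08, adjusted p = 0.0283). LINC02210 fell while PLEKHM1, 129579 bases away, rose by 0.27 (SE 0.08, adjusted p = 0.0465). For the other members that changed, the nearest gene did not pass the test.

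**Figure D4:**
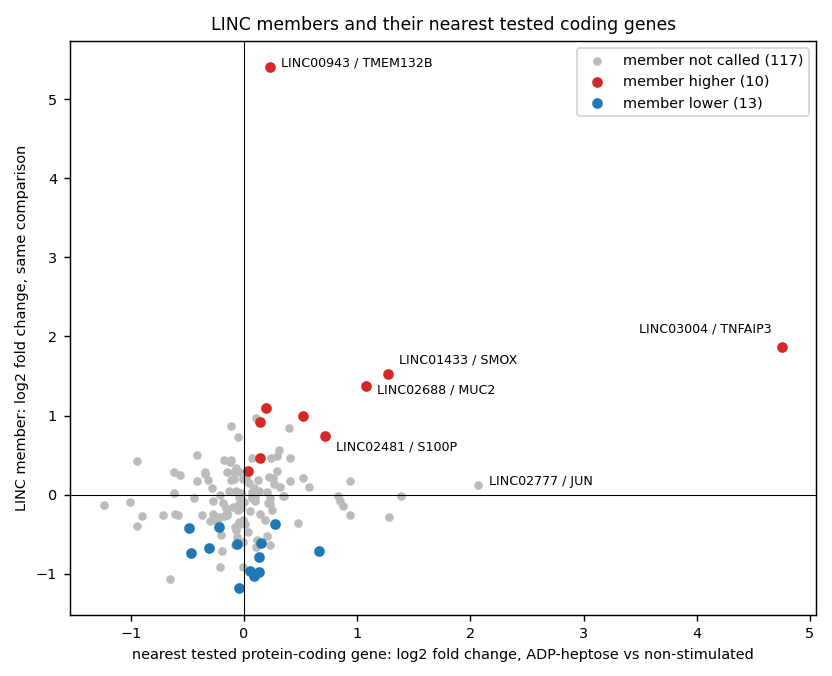
Log2 fold change after ADP-heptose of each of 140 LINC genes (vertical axis) against that of its nearest tested protein-coding gene (horizontal axis). Red points are the 10 members that rose and blue points the 13 that fell; LINC03004 beside TNFAIP3 lies far to the right, while LINC00943 has a nearest gene close to 0 and LINC02777 stayed near 0 beside JUN.

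Conversely, 26 of the 117 members that did not pass the test lay nearest to a coding gene that did. This gene rose for 12 members and fell for 14, beside 12.9% and 12.1% of all 140 nearest genes. CEBPB and ID2 were each counted more than once. The following pairs were picked after their values were seen. LINC02777, 98541 bases upstream of JUN, an immediate-early gene of the AP-1 family, had 24.2, 23.6 and 23.1 normalized counts in the AH libraries and 19.6, 29.2 and 16.2 in the NS libraries, with overlapping groups. Its log2 fold change was 0.13 (SE 0.34), with a 95% interval of -0.54 to 0.79, while JUN rose by 2.07 (SE 0.07, adjusted p = 1.2e-09). LINC01273, 14063 bases upstream of CEBPB, a transcription factor of inflammatory responses, gave -0.26 beside a rise of 0.93 for CEBPB (adjusted p = 1.1e-06). LINC01091 gave -0.13 while SPRY1, an inhibitor of receptor tyrosine kinase signaling 246507 bases away, fell by 1.24 (adjusted p = 2.4e-05).

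Levels among members can be compared only per length. Over the 140 members with a known exon length (median 2653.5 bases), the mean level was 0.0699 to 18.6 CPM per kb of exon, with a median of 0.832. By GENCODE exon lengths, LINC00659 had the highest level at 18.6, ahead of LINC01612 at 14.3 and LINC02677 at 11.5. LINC00239 and LINC01315 followed at 8.88 and 8.51. LINC00659 rose and LINC02677 fell after ADP-heptose, while the other 3 of these 5 did not pass the test. The annotation used for counting is not given, so the order of levels holds for GENCODE lengths only. The RefSeq starts of LINC00659 and LINC02677 lie outside their GENCODE gene bodies, so their lengths may be too short and their levels too high. LINC01612 had 228, 246 and 269 normalized counts in the AH libraries, 272, 268 and 245 in the F libraries and 315, 305 and 285 in the NS libraries, lower in every stimulated library than in the NS libraries (log2 -0.28 after ADP-heptose, SE 0.11, adjusted p = 0.130).

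The SE of the log2 fold change was larger for members with fewer reads. The 54 members with a mean of 20 to 50 counts had a median SE of 0.35 for the log2 fold change after ADP-heptose. Only LINC00943 and LINC01433 of them were counted as rising or falling. Both were taken in through the AH libraries, so this is a description. The 55 members with 50 to 200 counts had a median SE of 0.20 and 12 passed, and the 32 members with at least 200 counts had a median SE of 0.11 and 9 passed, down to a change of 0.30. Of the 109 members with a mean of 20 to 200 counts, 5.50% rose and 7.34% fell, beside 5.53% and 3.10% of the 4357 genes in the same range. Among the 118 members that did not pass, log2 fold changes ran from -1.07 (LINC02331, SE 0.32, adjusted p = 0.0530) to 0.96 (LINC00240, SE 0.35, adjusted p = 0.106). LINC02331 had 15, 19.3 and 18.7 normalized counts in the AH libraries and 48.5, 28 and 34.6 in the NS libraries, which did not overlap. LINC00240 had 37.5, 47.9 and 52.5 against 16.5, 34.8 and 19.5, also without overlap. For 86 of the 118 the 95% interval lay within 2-fold in both directions, and for the other 32 a 2-fold change lay inside the interval.

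**Figure D5:**
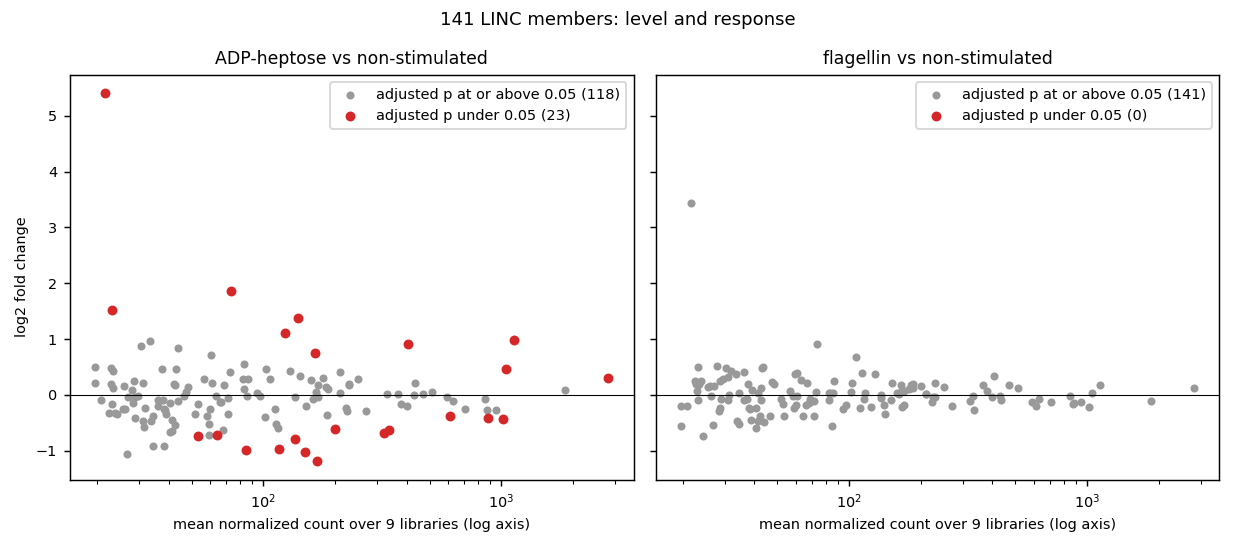
Log2 fold change (vertical axis) against mean normalized count over the 9 libraries (horizontal log axis) for the 141 LINC genes after ADP-heptose and after flagellin. Red points had an adjusted p under 0.05 (23 after ADP-heptose, 0 after flagellin). LINC00943 and LINC01433 are among them as a description only. The smallest changes that passed belong to members with high normalized counts, and LINC00943 stands alone at the top of both panels.

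Other non-coding genes with established names were set beside the members. They were listed with earlier results known and include genes linked to NF-κB, so they are no neutral comparison. Of 37 listed, 29 were tested, with a median log2 fold change of 0.17 after ADP-heptose. Of the genes tested, 7 rose and 2 fell, beside 7.48% and 4.42% of all genes. MIR3142HG, the host transcript of the NF-κB-induced microRNA miR-146a, had 357, 315 and 328 normalized counts in the AH libraries, 145, 152 and 146 in the F libraries and 3.09, 13.5 and 8.65 in the NS libraries. It rose by log2 fold changes of 5.31 (SE 0.26, adjusted p = 3.3e-08) and 4.14 (SE 0.28, adjusted p = 6.7e-06), and was the only listed gene to pass after flagellin. LUCAT1, NKILA, which binds the NF-κB complex, MIR22HG and LINC-PINT rose by 1.98, 1.44, 1.35 and 1.01 after ADP-heptose (adjusted p 4.8e-06, 1.9e-04, 1.1e-04 and 3.0e-04). NEAT1, the scaffold of nuclear paraspeckles, and SNHG12 rose by 0.40 and 0.42 (adjusted p = 0.00633 and 0.0330). HOTAIR, a transcript of the HOXC cluster, fell by 0.67 (adjusted p = 7.3e-05) and OIP5-AS1 fell by 0.33 (adjusted p = 0.00775).

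Of genes with antisense names, a further class of mostly non-coding transcripts, 386 were tested. After ADP-heptose 16 (4.15%) of them rose and 14 (3.63%) fell, beside 7.48% and 4.42% of all genes. Of 12909 protein-coding genes tested, 1095 (8.48%) rose and 649 (5.03%) fell. Among the 1380 LINC-named genes under the mean of 20 counts, 52 passed the filter on low counts. LINC00189, LINC01060, LINC01465 and LINC02273 (7.69%) rose among them, a share near the 7.48% of all genes. They passed the filter with fewer reads than any member, and no direction is read from them.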

How the data were processed

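RNA of 9 HT-29 libraries, 3 per condition, was analysed. The authors enriched poly(A) RNA, sequenced paired reads of 150 bases on a NovaSeq, used HISAT2 for alignment and featureCounts for counting. The deposited values are raw counts of each gene in each library, not normalized and not pooled. Versions, genome build, annotation, strand setting and the handling of reads mapping to several places are not given in the sources used here. The 62972 lines reduced to 62710 identifiers, because 232 were repeated with the same values.

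All identifiers were fitted together with edgeR 4.0.16 in R 4.3.3 (TMM scaling, filterByExpr defaults, robust quasi-likelihood fit of 9 libraries by group), and the quasi-likelihood F test was adjusted by Benjamini-Hochberg over 17412 genes. SE is the log2 fold change divided by the square root of F, and intervals span 1.96 SE on each side. These are narrower than 95% intervals of the F test. For CYTOR after ADP-heptose the interval, 0.020 to 0.524, lay wholly on the positive side at an unadjusted p of 0.056 (F test). Counts of members with an interval within 2-fold are therefore upper bounds. For normalized counts, each count was scaled by its library's effective size relative to the geometric mean size. At 30770448 to 58272772 counts per library, intervals of pooled counts cover counting error only. Gene types and positions came from GENCODE 29 (GRCh38) and promoters from RefSeq (GRCh38.p14). Matplotlib 3.10.9 in Python 3.11.15 drew the plots.

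Members and gene lists were chosen with earlier results of these data known. Named members are up to 15 largest rises and 10 largest falls after ADP-heptose among those with adjusted p under 0.05. They also include every member called after flagellin, the 10 largest differences in the direct comparison and the 5 members with the highest mean normalized count. The 3 on each side of the mean of 20 counts were named too, and the nearest coding genes were named with the members. Others are said to lie outside this rule or to have been seen first. Alternatives were DESeq2 1.42.0 as test and as scaling, library totals, no filter or a minimum mean of 10 counts, 6 libraries per fit, a replicate block, each library left out, a 2-fold threshold, and membership by other means. Leaving out the 6 identifiers typed as protein-coding was added after seeing the data. The fit was tested on simulated data.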

Additional observations from a re-analysis of the deposited data

How the results depend on the processing

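No member that passed the test changed sign in any of 16 settings of the fit. For ADP-heptose against non-stimulated cells the groups of these members did not overlap, so leaving out a library could hardly reverse a sign. Of the 10 rises and 13 falls after ADP-heptose, 8 and 5 passed in every setting, and 10 and 11 did without AH replicate 3. In the direct comparison 5 of 7 higher and 2 of 8 lower members passed in every setting, and 7 and 8 without AH replicate 3. With a 2-fold threshold the counts were 5 and 2 after ADP-heptose and 3 and 0 in the direct comparison. The 10 rises counted here include LINC00943 and LINC01433, and the 8 include LINC00943. Those higher than after flagellin include LINC01433. Both genes were taken in only through the AH libraries, so their part in these counts is a description. Library totals, which moved the median of all genes to -0.13 after ADP-heptose and -0.11 against flagellin, gave 22 falls after ADP-heptose and member medians of -0.18 and -0.16. Fits of the 6 libraries compared gave 8 falls after ADP-heptose and 4 members lower than after flagellin. Taking members by a mean of 20 counts in the non-stimulated libraries gave 8 rises, 13 falls and a median of -0.086 after ADP-heptose. With no filter on low counts, 1 member rose after flagellin. Why these settings moved the counts was not tested, beyond fewer libraries entering the fits of 6.

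With each library left out in turn, the members rising after ADP-heptose numbered 8 to 13 and those falling 6 to 14, with a median of -0.08 to -0.04. After flagellin 0 to 1 rose. In the direct comparison 5 to 12 were higher and 3 to 11 lower, with a median of -0.067 to -0.035.

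Whether the replicate numbers pair the libraries was not settled. Over 9 same-numbered pairs the correlation of deviations from the group means was -0.393 to 0.222. With 3 libraries per group such deviations cancel within a group, and AH replicate 3 stood apart, so these values cannot exclude pairing. A replicate block gave 9 rises and 9 falls after ADP-heptose, 0 and 0 after flagellin, and 6 higher and 5 lower in the direct comparison. Without the 6 identifiers typed as protein-coding, chosen after seeing the data, 9 rose and 13 fell after ADP-heptose. DESeq2 gave 10 and 13. The members of 20 to 50 counts had the largest median SE, and the part of depth in this was not tested.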
